A study of Mus musculus with 23 samples.

Results

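The circumvallate papilla is a taste organ far back on the mouse tongue, and messenger RNA was measured in 23 samples of it, 1 sample to a 1-colour Agilent array. Here the 8 samples of freely fed obese mice (DIO) were set against the average of the 2 means of the other groups, lean mice (Lean, 7 samples) and obese mice under restriction (DIO-R, 8 samples). The comparison takes in 23 of the 23 samples and asks which differences of the obese state were not found in restricted mice. All samples came from male C57Bl6j mice. Lean mice ate a laboratory chow with 3% fat by weight as they liked. DIO mice had free access to an obesogenic diet rich in saturated fat. DIO-R samples are read as mice on that diet held to 60% of the energy taken freely, which the sample names themselves do not spell out. Lingual epithelium was parted from the connective tissue with elastase and dispase before each papilla was dissected. The sources used here do not state the length of the diets, the hour at which tissue was taken, or that each sample was a separate animal, so p-values measure the spread between samples, which may in part be technical.

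A circumvallate papilla holds taste buds set in stratified epithelium, with immune cells, fibroblasts, vessels and serous glands beside and below it. Taste buds are built of glia-like type I cells, type II cells that detect sweet, umami or bitter compounds, and type III cells that respond to acid. Cells sense their sterol content through the membrane-bound factor SREBP2, which is released when sterols are scarce and drives the genes of cholesterol synthesis and uptake. MHC class II molecules present peptides on macrophages, Langerhans cells and other antigen-presenting cells, and their genes share a conserved promoter module that ends in a CCAAT box. Fatty acids act on nuclear receptors of the PPAR family, which raise genes of fat oxidation.

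Levels are on the log2 scale, background-subtracted and set against each array's own 75th percentile, so a level of 0 equals that percentile. The arrays gave 28366 genes of 35019 symbols on the design. The share of probes well above background ran from 66.9% to 78.4% by array, no spot was saturated, and correlations between arrays lay between 0.96 and 0.991. The arrays lay on 3 slides with every group on each, and 201 genes (0.709%) differed between slides. Markers of the tissue were present: the taste genes Gnat3 and Tas1r2 were well above background on all 23 arrays. Samples DIO 1 and DIO 6 stood low in taste cell genes, with type II cell scores of -0.93 and -0.59 and type I scores of -0.97 and -0.46, where a score is the mean centred log2 level of a gene list. Results on taste cell genes are given with and without both.

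In DIO against the average of the other groups, 3 genes passed an adjusted p under 0.05, which is 0.0106% of the genes tested, and all 3 rose. They were Angptl4, Aif1 and Impa2, and they differed in where the restricted group lay. Angptl4 encodes a secreted inhibitor of lipoprotein lipase, Aif1 a calcium-binding protein of macrophages, and Impa2 an enzyme that frees inositol from its phosphate. The tests of the single differences, all from the same limma fit and sharing the DIO arrays, called 1 gene for DIO against Lean (0.00353%), 17 genes for DIO against DIO-R (0.0599%) and 36 genes for DIO-R against Lean (0.127%).

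Aif1 was highest in DIO, with the restricted group in the middle (probe on chromosome 17, 35307959 to 35308018, mm9). Its levels were 1.12, 1.24 and 1.79 in DIO (lowest, median and highest), -0.04, 0.35 and 0.67 in Lean, and 0.31, 0.99 and 1.16 in DIO-R. Every DIO sample lay above every Lean sample, the restricted samples reached into both ranges, and DIO met DIO-R at its lower edge. The rise over the average was 0.69 ± 0.11 (SE) on the log2 scale, 1.61-fold (limma, adjusted p = 0.0379). DIO exceeded Lean by 0.95 (95% confidence interval 0.68 to 1.22, adjusted p = 0.00779), and Aif1 was the gene called in that difference. DIO exceeded DIO-R by 0.42 (0.16 to 0.68), which did not pass (adjusted p = 0.407). DIO-R in turn lay 0.53 above Lean (0.26 to 0.8) on average, which also did not pass (adjusted p = 0.137).

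Angptl4 was set apart by the restricted group (probe on chromosome 17, 33911880 to 33911939, mm9). Its levels were 4.03, 4.54 and 4.8 in DIO, 3.76, 4.42 and 5.07 in Lean, and 1.9, 2.57 and 3.21 in DIO-R. DIO and Lean overlapped throughout, and every restricted sample lay below every sample of both. The contrast was 0.97 ± 0.15 (SE), 1.96-fold (adjusted p = 0.0366), yet DIO minus Lean was only 0.05 (-0.31 to 0.41, adjusted p = 0.961). DIO minus DIO-R was 1.9 (1.55 to 2.25, adjusted p = 4.12e-06), and DIO-R minus Lean was -1.85 (-2.21 to -1.48, adjusted p = 6.52e-06). Angptl4 thus passed in the contrast while its DIO and Lean samples lay together.

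Impa2 was ordered DIO, Lean, DIO-R (probe on chromosome 18, 67478382 to 67478441, mm9). Its levels were 1.92, 2.27 and 2.48 in DIO, 1.85, 1.94 and 2.25 in Lean, and 1.33, 1.67 and 1.78 in DIO-R. The DIO samples overlapped those of Lean and lay wholly above those of DIO-R. The contrast was 0.48 ± 0.08 (SE), 1.39-fold (adjusted p = 0.0379). DIO minus DIO-R was 0.68 (0.5 to 0.87, adjusted p = 0.000715), whereas DIO minus Lean was 0.27 (0.08 to 0.46, adjusted p = 0.377).

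Within the slides, each of these 3 genes kept its direction: the contrast was 0.95 to 1.09 for Angptl4, 0.55 to 0.76 for Aif1 and 0.44 to 0.5 for Impa2. The calls sat close to the threshold. In the 23 fits that left out 1 sample each, Angptl4 passed in 9 with estimates of 0.92 to 1.04, Aif1 in 7 with 0.62 to 0.71, and Impa2 in 5 with 0.44 to 0.52. No gene passed in 13 of the fits, namely those lacking DIO 1, 2, 5, 7, 8 or 10, those lacking Lean 3, 6 or 10, and those lacking DIO-R 3, 4, 8 or 10. The count was 1 without Lean 9, DIO 6 or DIO 3, and 8 without Lean 7. Without DIO 1 and DIO 6 together it was 3, of which Impa2 was shared. The others were Gm10664 (0.49, adjusted p = 0.0369) and an unnamed transcript lower in DIO (probe A_55_P1979943, -0.72, adjusted p = 0.034). Angptl4 and Aif1 then missed the threshold, both at an adjusted p of 0.054 (limma).

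**Figure D1:**
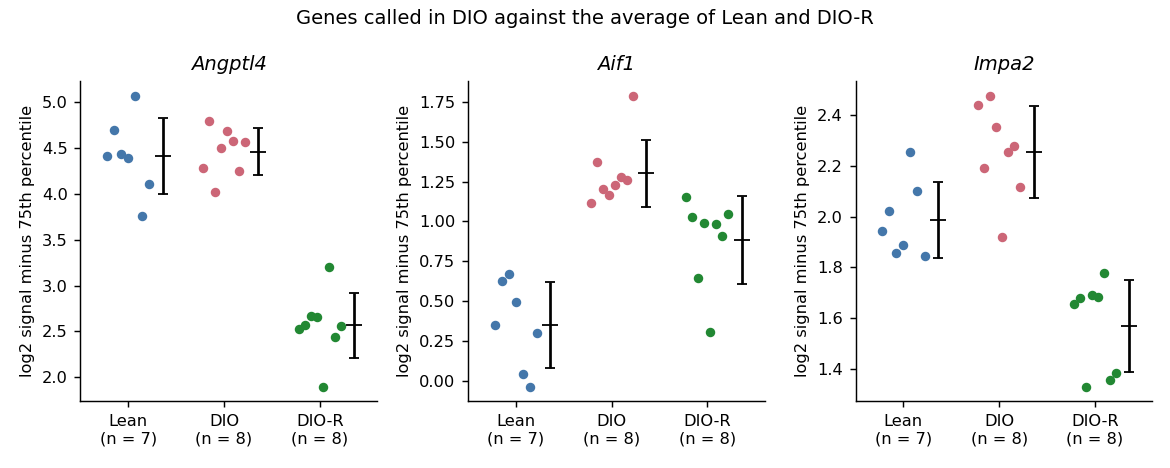
Level of Aif1, Angptl4 and Impa2 in every sample (y axis, log2 intensity minus the array's 75th percentile) by group, 7 lean samples, 8 DIO samples and 8 restricted samples. Points are samples, and bars give mean ± SD. Angptl4 of Lean and DIO overlaps, with DIO-R at 1.9 to 3.21, while Aif1 of DIO lies above all Lean samples.

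A gene whose DIO level stands apart from both groups should differ from each in 1 direction, and this was tested by the larger of the single p-values. After adjustment over all genes no gene passed (0 called, smallest adjusted p = 1, limma). At an unadjusted p under 0.05 in both differences, 181 genes (0.638%) were higher in DIO and 391 (1.38%) were lower. For the contrast itself, 1046 genes (3.69%) were higher and 1769 (6.24%) lower at an unadjusted p under 0.05, against 1418 in all that the threshold gives by itself. DIO-R against Lean gave 2540 such genes (8.95%). Over all genes the median contrast was -0.02, and 45.5% of genes lay above 0. Counts below are read against these shares, and except for the genes named as called, no gene below passed adjustment in the contrast.

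Among genes higher in DIO than in both groups, those with the smallest p in the contrast included interferon-induced GTPases, red cell genes and an enzyme of ubiquitin-like conjugation. Gbp7, a guanylate-binding protein of cell-autonomous defence, had levels of -2.63, -2.21 and -1.6 in DIO, -3.71, -2.98 and -2.3 in Lean, and -3.99, -2.93 and -2.29 in DIO-R. Of the 8 DIO samples, 5 lay above every sample of both other groups. Gbp7 was 0.82 above Lean (0.36 to 1.29) and 0.76 above DIO-R (0.32 to 1.21), and DIO-R minus Lean was 0.06 (-0.4 to 0.52). Its neighbour in function Gbp11 had a contrast of 0.74, with 0.82 over Lean and 0.66 over DIO-R. Uba7, the activating enzyme for the interferon-induced modifier ISG15, had a contrast of 0.49 and lay nearer to DIO-R (0.29) than to Lean (0.69). Chid1, which encodes a chitinase-like protein, was even on both sides, with 0.38 over Lean and 0.4 over DIO-R. Nrep had 0.63 over Lean and 0.23 over DIO-R, and every one of its 8 DIO samples lay above all Lean samples. Ccdc167 (contrast 0.31) followed, with another probe at 0.08. A pair of long intergenic transcripts completed the set. The transcript from the reverse strand of chromosome 16 (probe at 46387861 to 46387920, mm9) had 0.7, and its other probes ranged from 0.07 to 0.58. The transcript from the reverse strand of chromosome 13 (probe at 74643854 to 74643913, mm9) had 0.36, and its other probes ranged from -0.77 to 0.32 and so disagreed.

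Among genes lower in DIO than in both groups, Rhbdl3, a rhomboid-like membrane protein, had the smallest joint p of the genes named (0.000778, unadjusted). Its levels were -1.85, -1.52 and -1.27 in DIO, -1.41, -1.22 and -1.12 in Lean, and -1.37, -1.22 and -1.09 in DIO-R. Of the 8 DIO samples, 7 lay below every sample of Lean and 7 below every sample of DIO-R, whose medians were equal. DIO minus DIO-R was -0.31 (interval -0.47 to -0.16), the difference from Lean was -0.3 (-0.46 to -0.14), and DIO-R minus Lean was 0.02 (-0.14 to 0.17). Ptpn14, a phosphatase that restrains the transcriptional coactivator YAP, had a contrast of -0.46, with -0.37 against Lean and -0.55 against DIO-R. Nfkbib, an inhibitor of NF-kB, had -0.27 and -0.25, with other probes at -0.17 and -0.08 in the contrast, of which the second lay above DIO-R (0.17). Ass1, the arginine-making enzyme argininosuccinate synthase, had -0.31 and -0.23.

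Il22ra2 had the widest of the lower contrasts named. It encodes a secreted receptor that binds and blocks interleukin-22, a cytokine of epithelial barriers. Its levels were -5.32, -3.97 and -3.06 in DIO, -2.93, -2.76 and -1.91 in Lean, and -3.98, -3.4 and -2.09 in DIO-R, so all DIO samples lay below all Lean samples while 4 of 8 lay below all restricted ones. The contrast was -1.2 ± 0.27 (SE), with -1.55 against Lean (-2.21 to -0.89) and -0.84 against DIO-R (-1.48 to -0.2), and it spanned -0.73 to -2.13 over the slides. Adh1, an alcohol dehydrogenase that also handles retinol, showed the same order with -0.67 and -0.3. Wnt11, a secreted Wnt ligand, had -0.28 and -0.18, and Spopl, a ubiquitin ligase adaptor, had -0.25 and -0.21. Further transcripts carried only array names, NAP020469-001 (-0.58) and TC1623546 (-0.37). Bdh1, which turns over ketone bodies, had a contrast of -0.44 and was called against DIO-R (-0.58, -0.8 to -0.35, adjusted p = 0.0391) but not against Lean (-0.3, -0.53 to -0.07, adjusted p = 0.421).

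Genes of cholesterol synthesis and uptake, a list of 30, were lower in DIO than in lean and restricted samples alike by estimate. No set test was run. No member was called in the contrast. In the contrast 29 of 30 were lower, the median was -0.39 against -0.02 over all genes, and 24 were lower at an unadjusted p under 0.05, against 6.24% of all genes. Of the 30, 14 were lower against both groups singly, against 1.38% of all genes. The medians of the single differences were -0.39 against Lean and -0.38 against DIO-R, and DIO-R minus Lean had a median of -0.02. In DIO-R against Lean, 1 gene of transport and regulation was called. The 20 enzymes were all lower, 18 of them at an unadjusted p under 0.05 and 12 against both groups. Of the 10 genes of transport and regulation 9 were lower, 6 at that threshold and 2 against both. Members of a pathway share samples and regulation and are not replicates.

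Promoters of genes of cholesterol synthesis, MHC class II and the interferon response are shown here. Each was taken from RefSeq (GRCm38.p6) as the 250 bases before the gene start, 5′ to 3′ in the direction of the gene. Capitals mark CCAAT or its reverse complement ATTGG in the cholesterol and MHC genes, TCACNCCAC (a sterol regulatory element) in Hmgcs1, and GAAANNGAA or its reverse complement (an interferon-stimulated element) in Gbp7. They lie at chr8:122443423-122443672 (minus strand, Mvd), chr10:76531355-76531604 (plus, Lss), chr13:119690101-119690350 (plus, Hmgcs1), chr17:34305617-34305866 (plus, H2-Eb1), chr17:34287824-34288073 (minus, H2-Aa) and chr3:142530086-142530335 (plus, Gbp7).
Mvd: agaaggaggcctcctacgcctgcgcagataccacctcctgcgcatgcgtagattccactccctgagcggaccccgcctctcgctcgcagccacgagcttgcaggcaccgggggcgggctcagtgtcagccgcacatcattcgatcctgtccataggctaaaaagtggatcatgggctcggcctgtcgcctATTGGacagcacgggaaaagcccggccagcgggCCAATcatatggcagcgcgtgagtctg
Lss: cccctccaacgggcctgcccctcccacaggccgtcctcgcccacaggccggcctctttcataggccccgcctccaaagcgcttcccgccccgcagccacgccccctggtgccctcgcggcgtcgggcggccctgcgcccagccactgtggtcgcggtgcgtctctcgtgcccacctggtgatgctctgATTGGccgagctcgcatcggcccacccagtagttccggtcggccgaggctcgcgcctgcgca
Hmgcs1: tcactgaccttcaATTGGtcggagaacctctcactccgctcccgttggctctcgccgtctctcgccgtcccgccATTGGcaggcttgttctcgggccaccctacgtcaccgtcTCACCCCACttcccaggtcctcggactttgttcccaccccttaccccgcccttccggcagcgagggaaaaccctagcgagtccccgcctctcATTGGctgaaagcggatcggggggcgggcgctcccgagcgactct
H2-Eb1: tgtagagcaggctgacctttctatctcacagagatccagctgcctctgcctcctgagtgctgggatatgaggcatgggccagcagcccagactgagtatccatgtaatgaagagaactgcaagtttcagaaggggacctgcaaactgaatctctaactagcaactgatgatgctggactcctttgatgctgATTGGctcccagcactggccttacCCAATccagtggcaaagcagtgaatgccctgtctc
H2-Aa: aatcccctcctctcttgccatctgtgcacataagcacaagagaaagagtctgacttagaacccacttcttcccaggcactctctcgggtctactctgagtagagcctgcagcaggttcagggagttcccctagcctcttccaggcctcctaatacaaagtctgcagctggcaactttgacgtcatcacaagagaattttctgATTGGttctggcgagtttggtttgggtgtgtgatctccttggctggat
Gbp7: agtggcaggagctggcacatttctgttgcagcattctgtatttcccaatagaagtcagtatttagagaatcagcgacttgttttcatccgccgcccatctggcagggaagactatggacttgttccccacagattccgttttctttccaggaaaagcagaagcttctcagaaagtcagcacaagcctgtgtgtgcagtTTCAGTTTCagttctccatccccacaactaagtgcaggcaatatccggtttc

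The CCAAT letters, searched on both strands, stood in 18 of the 20 cholesterol promoters matched (90%) and in 8 of 9 of the MHC class II promoters matched (88.9%), against 37.5% of 27025 genes with a promoter. In Mvd they lay 60 to 56 and 27 to 23 bases before the start, in Lss 62 to 58, in H2-Eb1 59 to 55 and 35 to 31, and in H2-Aa 48 to 44. Both families thus hold the box close to the start in the promoters printed. TCACNCCAC was found in Hmgcs1 alone of the 20 cholesterol promoters, 137 to 129 bases before the start, and in 1.22% of genes. GAAANNGAA, an interferon-stimulated element, stood in 19 of 34 promoters of the interferon list (55.9%) against 8.18% of genes, and in Gbp7 it lay 52 to 44 bases before the start. A match is a description of letters and not of a factor bound there.

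Early in the pathway stands Hmgcs1, which makes HMG-CoA. Hmgcs1 had levels of 4.09, 4.59 and 5.04 in DIO, 4.68, 5.21 and 5.81 in Lean, and 4.64, 4.98 and 5.53 in DIO-R, so 4 of 8 DIO samples lay below all of Lean and 4 below all of DIO-R. Its contrast was -0.48 ± 0.13 (SE), with -0.56 against Lean and -0.41 against DIO-R, and another probe gave -0.8. Of the mevalonate steps that follow, Mvd, the decarboxylase that yields isopentenyl diphosphate, led the whole list. Its levels were 0.24, 0.61 and 1.06 in DIO, 0.7, 1.32 and 1.64 in Lean, and 0.77, 1.07 and 1.6 in DIO-R. All 8 DIO samples lay below the mean of Lean and of DIO-R, and 5 lay below every sample of both groups. The contrast of Mvd was -0.56 ± 0.12 (SE), 1.48-fold (adjusted p = 0.301), with -0.65 against Lean (-0.94 to -0.36) and -0.48 against DIO-R (-0.76 to -0.2), and it was -0.56 to -0.65 within slides.

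From squalene onwards the pattern was alike. Lss, which closes the squalene epoxide into the sterol rings, had levels of -0.19, 0.17 and 0.74 in DIO, 0.1, 0.72 and 1.44 in Lean, and 0.22, 0.66 and 1.15 in DIO-R. The groups overlapped, with DIO shifted down. Its contrast was -0.54 ± 0.14 (SE), with -0.59 against Lean (-0.94 to -0.24) and -0.49 against DIO-R (-0.83 to -0.15), and DIO-R minus Lean was -0.1 (-0.45 to 0.26). Among later enzymes, named for their place in the pathway, Sqle had -0.42, Cyp51 -0.45 and Dhcr7 -0.31. Stard4, a carrier of cholesterol between membranes, had -0.42 in the contrast and in both single differences, with levels of 0.09, 0.55 and 0.89 in DIO, 0.63, 0.93 and 1.17 in Lean, and 0.45, 0.88 and 1.39 in DIO-R. Of the regulators, Insig1, which holds SREBP2 back when sterols are plentiful, had -0.39, and Srebf2 itself had -0.28. Npc1, which moves cholesterol out of lysosomes, was different in kind: it lay 0.34 lower in DIO than in Lean by estimate (-0.34) but level with DIO-R (0.02), and DIO-R minus Lean was -0.36. Npc1l1 (0.29) was the member above 0.

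The cholesterol score, the mean centred level of the 30 genes, was -0.5, -0.16 and 0.19 in DIO (lowest, median and highest), -0.34, 0.15 and 0.49 in Lean, and -0.14, 0.07 and 0.44 in DIO-R. Of the 8 DIO samples, 7 lay below both other means, and the score difference was -0.35, -0.31 and -0.39 on the 3 slides. DIO 1 and 6, the samples low in taste cell genes, held the lowest scores (-0.42 and -0.5). Without them the median of the list was -0.27, with 15 genes at an unadjusted p under 0.05 and 7 lower against both groups. When 1 sample was left out the median ran from -0.46 to -0.34, with 20 to 26 genes at that threshold and 11 to 21 against both groups.

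**Figure D2:**
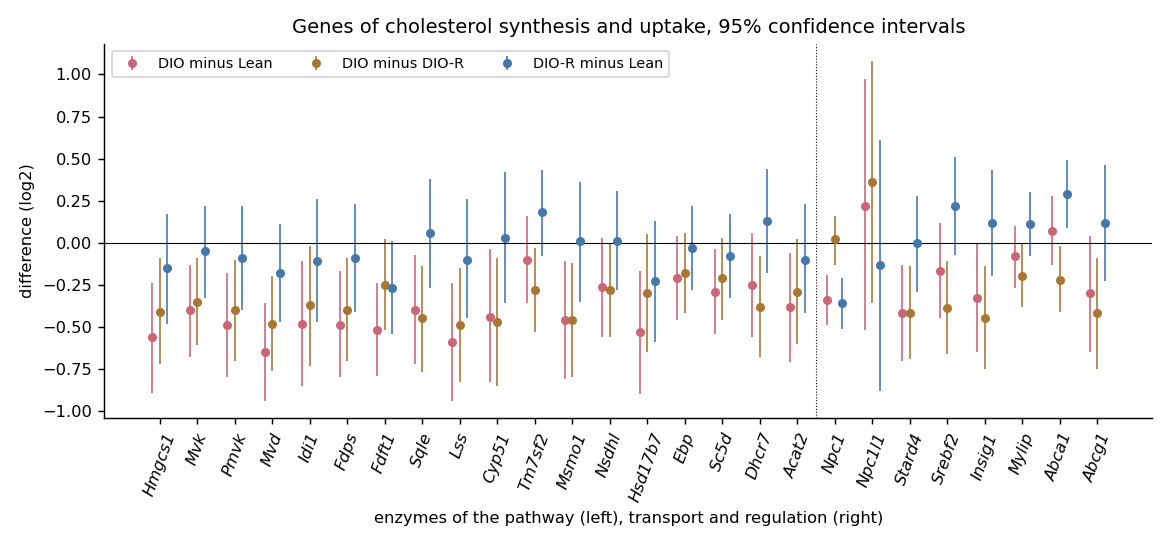
Difference (y axis, log2) of 26 genes of cholesterol synthesis and uptake for DIO minus Lean, DIO minus DIO-R and DIO-R minus Lean, with 95% confidence intervals. Enzymes stand in pathway order to the left of the dotted line, and genes of transport and regulation to its right. The 18 enzymes plotted lie below 0 in both DIO differences, with DIO-R minus Lean scattered about 0.

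Genes of differentiated keratinocytes were also lower in DIO (median -0.53) and those of fibroblasts were higher (0.31), as shown further on. With the keratinocyte and fibroblast scores as covariates the median of the cholesterol list was -0.18, with 8 genes at an unadjusted p under 0.05 and 1 against both groups. With the red cell score as a covariate it was -0.45, with 18 and 15 genes. Their part in the result was not tested. In a tissue of many cell types, fewer cells of a type and less RNA per cell cannot be told apart.

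Fatty acid synthesis, which SREBP1 and dietary fat regulate, was less uniform. Of 19 genes 12 were lower in the contrast, the median was -0.16, and 7 were lower at an unadjusted p under 0.05, 2 of them against both groups. Acly, which makes cytosolic acetyl-CoA, had levels of 3.61, 3.74 and 3.98 in DIO, 3.75, 3.95 and 4.2 in Lean, and 3.75, 3.97 and 4.2 in DIO-R, a small shift of -0.21 against each. Me1, the malic enzyme that supplies NADPH, had -0.36 against Lean and -0.41 against DIO-R. Acss2, which activates acetate, was lower mainly against Lean (-0.34, with -0.12 against DIO-R). Scd2, a stearoyl-CoA desaturase, lay below the restricted group. Its levels were 3.05, 3.72 and 4.03 in DIO, 3.37, 3.63 and 3.98 in Lean, and 4.21, 4.38 and 4.64 in DIO-R. DIO and Lean overlapped, and all restricted samples lay above both. DIO minus DIO-R was -0.74 (-0.97 to -0.51, adjusted p = 0.00375), DIO minus Lean was -0.03 (-0.27 to 0.21), and the contrast of -0.39 did not pass.

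MHC class II genes were the counterpart, higher in DIO than in both groups by estimate, with no member called. All 12 genes lay above 0 in the contrast, with a median of 0.52, and 9 were higher at an unadjusted p under 0.05, against 3.69% of all genes. Of them, 6 were higher against both groups singly, against 0.638% of all genes. The median was 0.58 against Lean and 0.45 against DIO-R, while DIO-R minus Lean had a median of 0.09. H2-Eb1, a beta chain of the class II molecule, had levels of 5.18, 5.52 and 6.19 in DIO, 4.21, 5.07 and 5.34 in Lean, and 4.11, 5.14 and 5.48 in DIO-R. Of the DIO samples, 6 of 8 lay above all Lean samples and 4 above all restricted ones. Its contrast was 0.61 ± 0.17 (SE), 1.52-fold (adjusted p = 0.399), with 0.66 against Lean (0.25 to 1.07) and 0.56 against DIO-R (0.16 to 0.95), and 0.55 to 0.68 within slides. The other chains and helpers followed: H2-Ab1 had 0.53 in the contrast, Cd74, the invariant chain, 0.54, and Ctss, the protease that trims that chain, 0.44. H2-Aa, named for the promoter shown, had 0.64. Ciita, the factor that switches on class II genes, stood at 0.1 with levels overlapping in all groups.

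The class II score was -0.21, 0.27 and 0.92 in DIO, -0.81, -0.12 and 0.12 in Lean, and -0.85, -0.03 and 0.33 in DIO-R. All but 1 of the DIO samples lay above both other means, and the score difference was 0.46, 0.47 and 0.4 on the slides. Without DIO-R 6 or without DIO 10, 3 genes in place of 6 were higher against both groups. With the red cell score as a covariate the median was 0.6, with 7 genes at an unadjusted p under 0.05 and 6 against both groups. With the keratinocyte and fibroblast scores it was 0.31, with 6 genes at that threshold and 2 against both groups. Their part in the result was not tested.

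Interferon-induced genes were higher as well, but their distance from the restricted group was smaller by estimate. Of 49 genes 46 were higher in the contrast, with a median of 0.46, and 19 were so at an unadjusted p under 0.05. Against both groups, 7 were higher. The median was 0.66 against Lean, 0.3 against DIO-R and 0.33 for DIO-R minus Lean. Ifi203, a nuclear DNA sensor of the p200 family, shows that order: its levels were 0.55, 0.82 and 1.34 in DIO, -0.41, -0.26 and 0.81 in Lean, and 0.17, 0.51 and 0.93 in DIO-R. It lay 0.89 above Lean and 0.3 above DIO-R. Gbp4, another guanylate-binding protein, had 0.81 and 0.51, and Bst2, which tethers budding virus to the cell, had 0.75 and 0.58. Of the 6 guanylate-binding proteins on the list 5 were higher, 4 at an unadjusted p under 0.05 and 2 against both groups, with a median contrast of 0.69.

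The interferon score varied most among the DIO samples, from -0.34 to 1.57 with a median of -0.04, against -0.83 to 0.01 in Lean and -0.57 to 0.59 in DIO-R. Among DIO samples 7 of 8 lay above the Lean mean and 3 of 8 above the DIO-R mean, so a few samples carried the distance from DIO-R. The number of genes higher against both groups went from 7 to 12 without DIO 1 and to 11 without DIO 7, and to 4 without DIO 3 or DIO 10. Without DIO 1 and DIO 6 together the median was 0.64, with 31 genes at an unadjusted p under 0.05 and 12 against both groups. The score difference was 0.22, 0.77 and 0.42 on the slides.

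Macrophage and Langerhans cell markers gave 25 of 30 genes above 0, a median of 0.29, and 14 at an unadjusted p under 0.05, of which 4 were higher against both groups. Besides Aif1, the list was led by Tlr12, an endosomal receptor for microbial profilin, with levels of -2.2, -1.86 and -1.22 in DIO, -3.12, -2.66 and -2.4 in Lean, and -2.68, -2.17 and -1.64 in DIO-R. Every DIO sample lay above every Lean sample, and DIO-R lay between. Tlr12 was 0.86 above Lean (0.53 to 1.19) and 0.31 above DIO-R (-0.01 to 0.63). Slamf9 (0.54 against Lean, 0.17 against DIO-R) and the integrin Itgax of dendritic cells (0.65 and 0.15) had the same order. Over the whole list the median was 0.26 against Lean, 0.25 against DIO-R and 0.08 for DIO-R minus Lean. The general macrophage markers Cd68 (0.06) and Lyz2 (-0.05), named as defining markers, stood near 0. The count at an unadjusted p under 0.05 fell to 8 without DIO 10. The count against both groups was 1 without DIO 10, 2 when Lean 9 was left out and 7 when DIO 3 was. With the keratinocyte and fibroblast scores as covariates the median was 0.09.

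**Figure D3:**
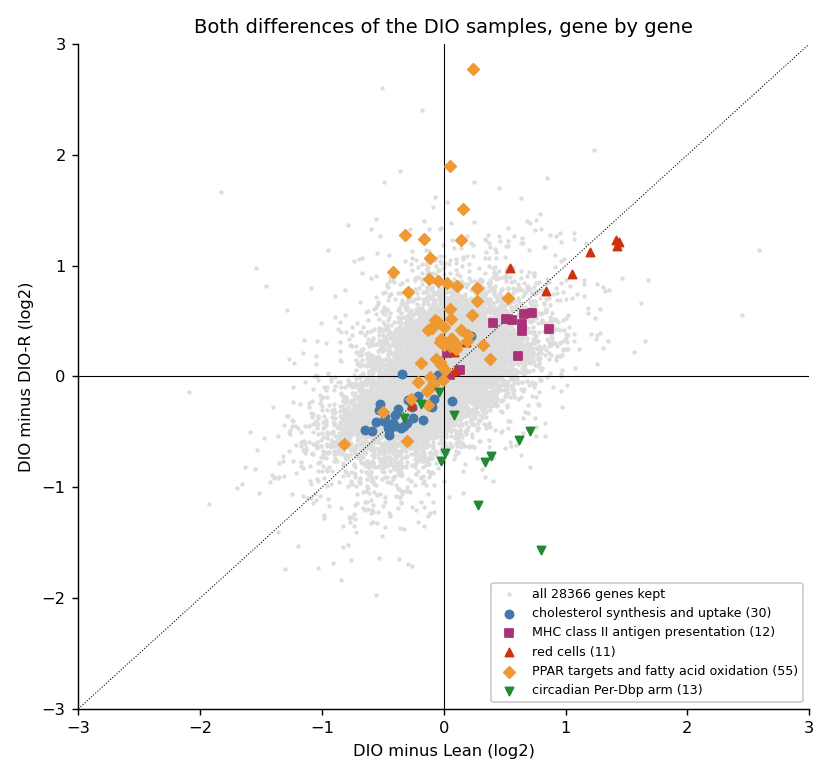
Each gene's difference DIO minus Lean (x axis, log2) against DIO minus DIO-R (y axis, log2), for all 28366 genes in grey and 5 gene lists in colour. The dotted line marks equal differences, and both axes share the DIO samples, which by itself tilts the cloud along that line. Cholesterol genes lie below 0 on both axes at medians of -0.39 and -0.38, MHC class II genes above 0 on both at 0.58 and 0.45, and the Per-Dbp genes of the clock to the lower right at 0.28 and -0.69.

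Red cell genes were higher in DIO by the widest median of the 28 lists. Of 11 genes 10 lay above 0, the median was 0.8, and 8 were higher at an unadjusted p under 0.05, of which 6 were so against both groups. Hbb-bt, a beta chain of adult haemoglobin, had levels of 3.54, 4.44 and 5.66 in DIO, 2, 3.34 and 3.98 in Lean, and 2.5, 3.41 and 4.42 in DIO-R. All 8 DIO samples lay above both other means, and 7 lay above every Lean sample. The contrast was 1.32 ± 0.29 (SE), 2.49-fold (adjusted p = 0.301), with 1.41 against Lean (0.71 to 2.11) and 1.23 against DIO-R (0.55 to 1.91). Hbb-bs (1.33) and Hbb-b2 (1.3) had similar values, but near-identical haemoglobin copies can share probe signal. All 5 haemoglobin genes were higher against both groups, with a median of 1.3. Alas2, the first enzyme of haem synthesis in red cell precursors, had 0.8. The red cell score was -0.18 to 1.13 in DIO, -0.95 to 0.05 in Lean and -0.98 to 0.35 in DIO-R. It lay above both other means in all 8 DIO samples, and its difference was 0.42, 0.66 and 1.25 on the slides.

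Red cell genes can mark blood in a tissue, and the amount of blood in these samples was not measured. The list medians with the red cell score as a covariate are given here. They were 0.58 for interferon genes, 0.37 for macrophage markers, -0.45 for differentiated keratinocytes and 0 for PPAR targets. For alarmins and cell cycle genes they were -0.36 and 0.26, from -0.38 and 0.23 without the covariate. Immediate early genes and fatty acid synthesis had -0.14 and -0.18, from -0.18 and -0.16. The numbers at an unadjusted p under 0.05 in the direction of the list moved further. They went from 21 to 4 for differentiated keratinocytes, from 10 to 2 for alarmins, from 18 to 8 for PPAR targets, from 17 to 10 for cell cycle genes, from 8 to 1 for immediate early genes and from 7 to 4 for fatty acid synthesis. Against both groups, keratinocyte genes went from 3 to 0 and alarmins from 3 to 0, while macrophage markers went from 4 to 8 and interferon genes from 7 to 11. Under that covariate 1749 genes reached an unadjusted p under 0.05 in the contrast, in place of 2815, and 1 was called (Tlr12, 1.01). The contrasts of Angptl4, Aif1 and Impa2 were then 0.84, 0.8 and 0.33 with adjusted p of 0.774, 0.303 and 0.774. The red cell score lay above both other means in all 8 DIO samples, so the covariate overlaps with the group. A count can then fall while its list median holds. The part of blood in these results was not tested.

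Genes of the differentiated keratinocyte, which build the cornified layer, were lower in DIO. Of 36 genes 35 were lower, the median was -0.53, and 21 were lower at an unadjusted p under 0.05, though 3 were so against both groups. The median was -0.61 against Lean, -0.44 against DIO-R and -0.15 for DIO-R minus Lean. Cnfn, a component of the cornified envelope, had levels of 5.75, 6.03 and 7.1 in DIO, 5.8, 6.99 and 7.43 in Lean, and 6.2, 6.74 and 7.1 in DIO-R. The groups overlapped, with 5 of 8 DIO samples below all restricted ones and 1 below all lean ones. Cnfn had -0.58 in the contrast, Cdsn, the corneodesmosin that glues cornified cells, -0.7, the cross-linking enzyme Tgm1 -0.51 and the calcium sensor Calm4 -0.55. The 8 late cornified envelope genes were all lower at an unadjusted p under 0.05, with a median of -0.82, and none was so against both groups. The keratinocyte score was -1.3 to 0.6 in DIO, -0.66 to 0.92 in Lean and -0.4 to 0.42 in DIO-R, and its difference was -0.36, -0.43 and -1.09 on the slides.

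The keratinocyte counts rested on single samples. The number at an unadjusted p under 0.05 was 10 without DIO 2 and 13 without DIO 6 or DIO 8. The number lower against both groups rose from 3 to 17 when DIO 3 was left out, to 11 when Lean 7 was, to 7 when DIO-R 8 was, and to 5 when DIO 1, DIO 5 or DIO-R 2 was. It went to 1 when DIO 2, DIO 6, DIO-R 4 or DIO-R 6 was left out. Epithelial alarmins and antimicrobial genes lay lower too, 19 of 24 with a median of -0.38 and 10 at an unadjusted p under 0.05. S100a7a, an S100 alarmin, had -0.71, Defb14, a beta-defensin, -0.69, and Wfdc12, a protease inhibitor, -0.78. Il22ra2, described above, is on that list. Their number at that threshold was 4 without DIO 2. The number against both groups, 3, was 1 without DIO 1, 2, 8 or 10, 7 without DIO 3 and 6 without DIO-R 8.

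Fibroblast and matrix genes all lay above 0 (25 of 25, median 0.31), but 2 did so at an unadjusted p under 0.05 and none against both groups. Lum and Col3a1, both matrix proteins, had 0.57 and 0.53, mostly against Lean (0.96 and 0.73). The count was 20 without DIO 3 and 4 without Lean 5. Postn (0.46) and Ogn (0.44) were the next members. The fibroblast score was -0.76 to 0.63 in DIO, -1.02 to 0.29 in Lean and -0.76 to 0.49 in DIO-R. With the keratinocyte and fibroblast scores as covariates, 1428 genes reached an unadjusted p under 0.05 in the contrast and none was called. The medians of the keratinocyte and fibroblast lists were then both -0.01, which follows by construction, as their own scores were the covariates. The median of the alarmin list was -0.01, that of interferon genes 0.47 and that of the red cell list 0.91. How much epithelium and connective tissue each dissection held was not measured, and its part in the results was not tested.

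**Figure D4:**
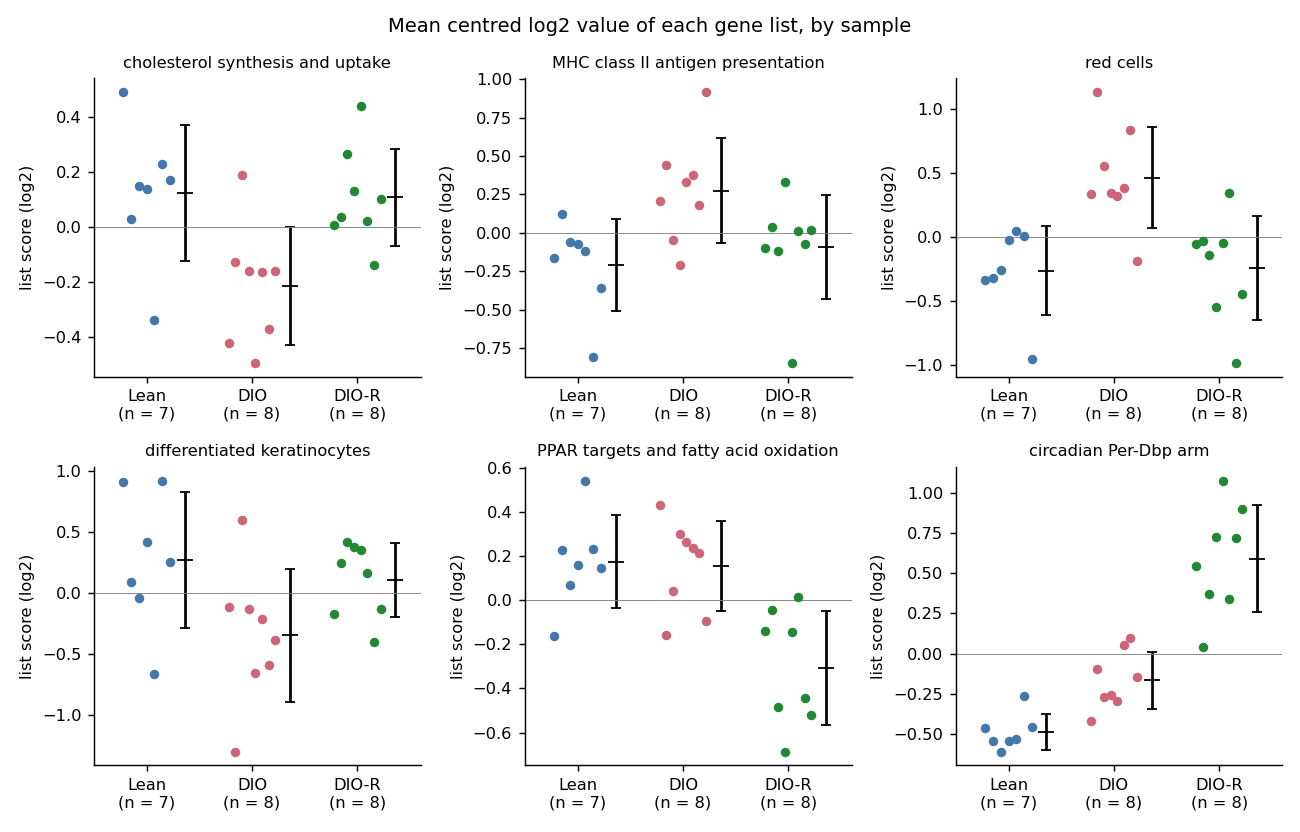
Score of 6 gene lists (y axis, mean centred log2 level of the genes) in every sample, 7 lean, 8 DIO and 8 restricted. Points are samples, and bars give mean ± SD. The DIO mean is shifted from both other means for cholesterol, MHC class II and red cell genes, with ranges that overlap. DIO lies with Lean for PPAR targets (medians 0.23 and 0.16, DIO-R -0.29). It lies between both for the Per-Dbp arm (DIO -0.2, Lean -0.53, DIO-R 0.63).

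Several lists reached the contrast through 1 of the single differences. PPAR targets and fatty acid oxidation genes, which fatty acids raise through nuclear receptors, had 43 of 55 genes above 0, a median of 0.2, and 18 higher and 2 lower at an unadjusted p under 0.05. The median was 0.34 against DIO-R and -0.02 against Lean, and -0.29 for DIO-R minus Lean. Against both groups 1 gene was higher (Impa2, called in the contrast as described above) and 1 was lower. Pdk4, the kinase that turns pyruvate away from oxidation, had levels of 4.61, 5.7 and 6.28 in DIO, 4.09, 5.31 and 6.65 in Lean, and 1.09, 2.83 and 4.28 in DIO-R. DIO lay wholly above DIO-R and within the range of Lean. DIO minus DIO-R was 2.77 (1.86 to 3.68, adjusted p = 0.00647), DIO minus Lean was 0.24 (-0.7 to 1.18), and the contrast of 1.51 did not pass (adjusted p = 0.354). Acot1, a thioesterase of fatty acyl-CoA, had 1.24 against DIO-R (adjusted p = 5.39e-05) and -0.16 against Lean. Acot5, of the same family, had 1.28 (adjusted p = 0.000715) and -0.32, but another Acot5 probe disagreed, with -0.09 and -0.25. The gate of mitochondrial fat oxidation, Cpt1a, had 0.49 (adjusted p = 0.00371) and -0.05. Klf11, a metabolic transcription factor, and Tmem82 had 0.61 and 1.51 against DIO-R (adjusted p = 0.00489 and 0.00583) with 0.05 and 0.16 against Lean. Acot1, Acot5 and Acot2 are close copies whose probes may share signal.

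For Dbp, an output gene of the circadian clock, the single differences ran in opposite directions. Its levels were of 0.92, 1.72 and 2.86 in DIO, 0.16, 0.28 and 0.47 in Lean, and 2.54, 3.93 and 4.57 in DIO-R. All DIO samples lay above all Lean samples, and 7 of 8 below all restricted samples. DIO minus DIO-R was -1.98 (-2.51 to -1.45, adjusted p = 0.000715), DIO minus Lean was 1.51 (0.97 to 2.06, adjusted p = 0.0797), and the contrast was -0.23 ± 0.22 (SE). Dbp differed most between the outer groups, with DIO-R minus Lean at 3.49 (2.94 to 4.04, adjusted p = 1.75e-07). Of the 13 genes of the Per-Dbp arm 11 lay below 0 in the contrast, with a median of -0.22 made of 0.28 against Lean and -0.69 against DIO-R. DIO-R minus Lean had a median of 1.11, with 8 genes called.

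Within that arm, Per2, a repressor at the core of the clock, had 0.28 against Lean and -1.16 against DIO-R. Bhlhe40 (-0.02 and -0.76) and Hlf (0.01 and -0.69) were apart from the restricted group by estimate, with Bhlhe40 called there (adjusted p = 0.0391). Usp2, a ubiquitin protease, was the member lower against both groups at an unadjusted p under 0.05 (-0.33 and -0.38). In the Bmal1 arm, which peaks opposite to Dbp, the 9 genes had a median of -0.15, from -0.34 against Lean and -0.07 against DIO-R. Npas2 (-0.52 and -0.15) and Cry1 (-0.42 and -0.12) were nearer to the restricted group. Rora had -0.45 and -0.13, but another probe gave 0.3 and 0.14 and so disagreed. The hour of tissue collection is not given in the sources used here, and with it the part of time of day in these values was not tested.

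Cell cycle genes lay above Lean in both obese groups by estimate. Of 43 genes 40 were above 0 in the contrast, with a median of 0.23 and 17 at an unadjusted p under 0.05, but the median was 0.39 against Lean, 0.02 against DIO-R and 0.3 for DIO-R minus Lean. Rrm2, part of ribonucleotide reductase, which supplies DNA building blocks, had levels of 1.09, 1.22 and 1.59 in DIO, 0.23, 0.8 and 0.85 in Lean, and 0.7, 1.15 and 1.52 in DIO-R. All DIO samples lay above all Lean samples, and DIO and DIO-R overlapped. E2f8 (0.44 against Lean, 0.21 against DIO-R) and the checkpoint kinase Bub1b (0.44 and 0.26) had the same order. Tk1 had 0.8 and 0.21, with 1 other probe at 0.82 and 0.22 and another that disagreed at -0.09 and 0.11. The count at that threshold was 30 without DIO 6 and 10 without DIO 3.

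Immediate early genes, which respond within minutes to stimulation and to tissue handling, had 17 of 21 genes below 0, with a median of -0.18 and 8 at an unadjusted p under 0.05, none of them lower against both groups. Egr1 had levels of 0.79, 1.57 and 2.41 in DIO, 1.5, 1.81 and 2.43 in Lean, and 2.07, 2.62 and 4.25 in DIO-R, so DIO was nearer to Lean (-0.26) than to DIO-R (-1.18). Fosb (-0.34 and -0.59), Junb (-0.26 and -0.54) and Zfp36 (-0.19 and -0.51) had the same order. The medians of the 21 genes did not share it, at -0.18 against Lean and -0.08 against DIO-R. At an unadjusted p under 0.05, 1 gene was lower against Lean and 9 against DIO-R. The count of 8 in the contrast was 5 without DIO 1.

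Taste cell genes depended on DIO 1 and DIO 6. Type II genes had 14 of 16 below 0, with a median of -0.19, and type I genes 9 of 10, with a median of -0.25 and 3 at an unadjusted p under 0.05. Without DIO 1 and DIO 6 the medians were 0.04 and -0.09. Both samples were singled out for low scores in these lists, so a rise on leaving them out follows from that choice. Gnat3, the G protein subunit gustducin, had levels of -1.59, 0.95 and 1.39 in DIO, 0.66, 0.89 and 1.12 in Lean, and 0.72, 0.96 and 1.24 in DIO-R, with nearly equal medians. Its contrast was -0.37 with all samples and 0.12 without those samples. Tas1r2, a sweet receptor subunit, likewise went from -0.5 to 0.01. Itpr3, the calcium channel of type II cells, had -0.18, and -0.08 without them. Sucnr1, a succinate receptor, had 0.77, and 0.79 without them, but was well above background on 2 of 8 restricted arrays.

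Tas1r3, the subunit shared by the sweet and umami receptors, was lower against both groups at an unadjusted p under 0.05. Its levels were -2.34, -2.25 and -1.93 in DIO, -2.22, -1.89 and -1.4 in Lean, and -2.34, -1.84 and -1.62 in DIO-R. All DIO samples lay below both other means, yet the ranges overlapped. The contrast was -0.3 ± 0.1 (SE), which did not pass (adjusted p = 0.421), with -0.32 against Lean and -0.28 against DIO-R. Without DIO 1 and DIO 6 it was -0.31. Among type I genes Oxtr, the oxytocin receptor, had -0.59 and -0.57, with levels of -2.34, -1.21 and -0.47 in DIO, -1.14, -0.64 and -0.53 in Lean, and -1.25, -0.7 and -0.35 in DIO-R. The contrast of Oxtr was -0.58, and -0.36 without DIO 1 and DIO 6. The sodium channel subunits Scnn1a (-0.33) and Scnn1b (-0.44) and the anion channel Best2 (-0.37) were the next members, at -0.2, -0.16 and -0.02 without those samples.

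Among fat receptors proposed in this tissue, neither Cd36 nor Ffar4 reached an unadjusted p under 0.05 in the contrast. Cd36, a fatty acid transporter and candidate fat taste receptor, had levels of 0.91, 1.79 and 2.2 in DIO, 0.24, 1.67 and 2.56 in Lean, and -0.94, 0.91 and 1.74 in DIO-R. DIO and Lean shared their range, and DIO-R reached lower. DIO minus Lean was 0.03, DIO minus DIO-R was 0.84, and the contrast was 0.44. Ffar4, a receptor of long-chain fatty acids, had 0.12 and 0.14, and all groups overlapped. The list of fat taste and taste peptides, 29 genes, had a median of -0.1, with 1 gene higher and 6 lower at an unadjusted p under 0.05. Against both groups 1 was higher and 3 were lower, where all genes gave 0.638% and 1.38%.

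Lymphocyte markers had a median of 0.02, mast cells and neutrophils -0.08, endothelium and smooth muscle 0.15, basal keratinocytes -0.14, type III taste cells -0.26 (-0.02 without DIO 1 and DIO 6), taste bud renewal -0.11, heat shock and unfolded protein response -0.03 and Von Ebner glands -0.04. Genes of the glucocorticoid response and metallothioneins had a median of -0.13, with 6 of 19 lower at an unadjusted p under 0.05 and 1 lower against both groups. Skeletal muscle had 28 of 30 genes above 0, a median of 0.29 and no gene at an unadjusted p under 0.05, and its median was 0 against Lean and 0.58 against DIO-R. Adipocyte genes had a median of 0.15, from -0.18 against Lean and 0.37 against DIO-R, and 1 of 18 was higher against both groups.

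**Figure D5:**
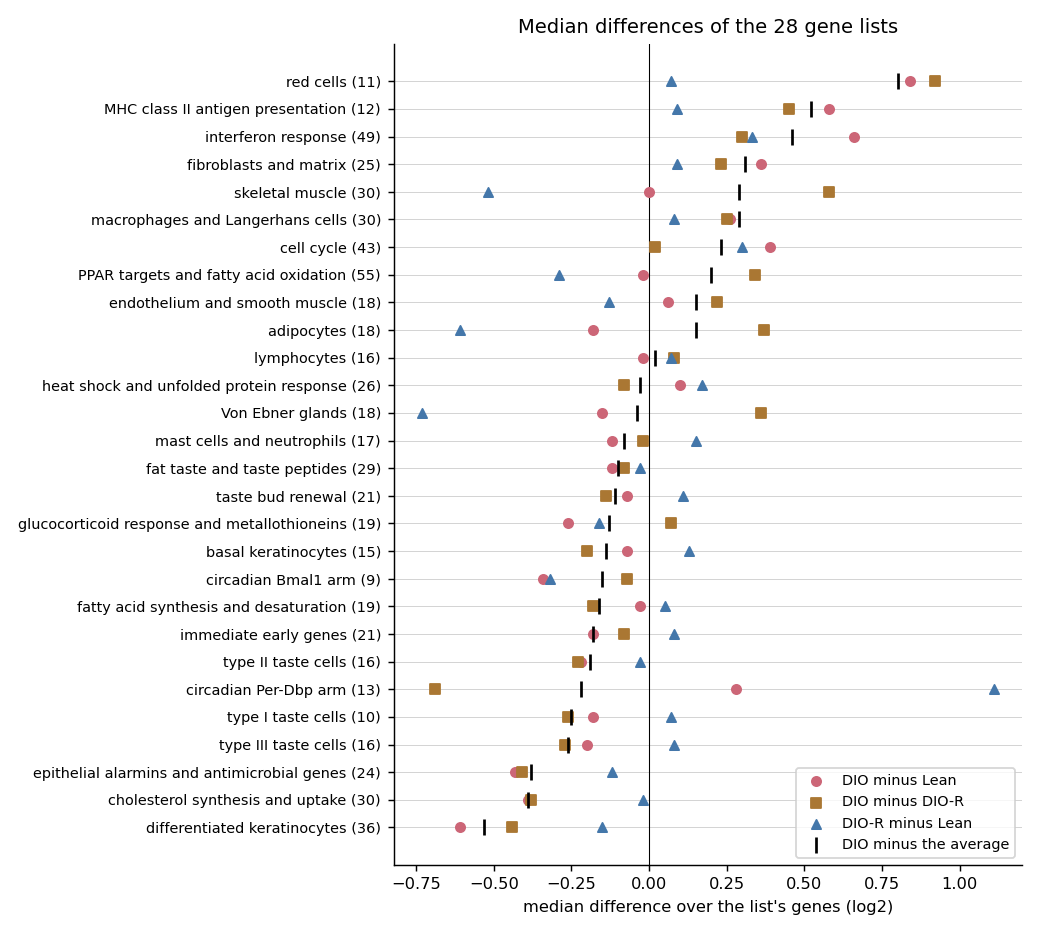
Median difference over the genes of each of the 28 lists (x axis, log2), with the number of genes in brackets, for DIO minus Lean, DIO minus DIO-R, DIO-R minus Lean and the contrast of DIO with the average. The cholesterol, MHC class II and red cell lists, with DIO-R minus Lean medians of -0.02, 0.09 and 0.07, have both DIO medians on 1 side of 0, and the Per-Dbp arm (1.11) has them at 0.28 and -0.69.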

How the data were processed

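Per the file headers, the intensity of each spot was extracted with Agilent Feature Extraction 10.10.1.1, which subtracts background within an array; the files deposited are 1 scanner file to a sample, made from 25 ng of total RNA. A log2 value table of 35829 probes was also deposited by the authors. It has array medians of 7.63 to 7.64, its normalization steps are not given in the sources used here, and it served as an alternative. Probe positions are those of the files, build mm9.

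Control and outlier spots were dropped, and repeat spots of a probe were merged as their mean. For each gene the brightest probe on average stood for it, and the gene was kept when well above background on at least 7 of 23 arrays. Of the genes kept, 17349 matched a RefSeq accession and 1843 took its symbol. Groups came from the sample titles. The model was a mean per group over all 23 arrays, with no covariate, fitted by lmFit and eBayes of limma 3.58.1 (R 4.3.3) with two-sided tests, Benjamini-Hochberg adjustment over 28366 genes and a threshold of 0.05. The scripts were tested on simulated data. Arrays have no depth, so their number, 7 or 8 in a group, limits precision.

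The contrast and the 28 gene lists (673 genes, 635 kept) were chosen with earlier results of these data known, and their counts are descriptions. Genes named were those called, up to 12 in each direction with the smallest p in the contrast among genes at an unadjusted p under 0.05 against both groups, up to 4 of each of 16 described lists, up to 8 called in 1 single difference, and Cd36, Ffar4, Tas1r3 and Gnat3. Others are named for their place in a pathway or as markers, after their values were seen. The lists without an account of named members are given by medians. The 14 alternatives and 23 fits without 1 sample each are described with the closing results. Figures were made in matplotlib 3.10.9 under Python 3.11.15. Of the cholesterol list, 4 genes enter the counts and are not reported singly here.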

Additional observations from a re-analysis of the deposited data

Results flagged for a closer look

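In 10 of 264 sets of group values, over the 88 genes named, the highest or lowest sample stood far from the others of its group by Dixon's criterion, 3.79%, where chance gives about 1 in 20. Of these, 3 lay in sample DIO-R 6. That sample was lowest of its group in H2-Eb1 at 4.11 (the others at 4.91 to 5.48) and in H2-Ab1 at 4.57 (5.3 to 5.8), and highest in Mvd at 1.6 (0.77 to 1.1).

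Sample DIO 10 was highest in Aif1 at 1.79 (the others at 1.12 to 1.37) and in Tlr12 at -1.22 (-2.2 to -1.78). DIO 3 was highest in Bst2 at 2.84 (0.9 to 1.68) and lowest in Slamf9 at -0.16 (0.12 to 0.37). Lean 7 was lowest in Defb14 at 2.34 (3.57 to 4.25) and in Oxtr at -1.14 (-0.73 to -0.53), and Lean 3 was lowest in Cd36 at 0.24 (1.62 to 2.56).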

How the results depend on the processing

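Of the alternatives, 5 took the count of called genes for DIO against the average from 3 to fewer: 0 with no filter on dim probes, 0 with the replicate number as a block, 0 with Lean and DIO-R pooled into 1 group of samples, 1 with the red cell score as a covariate and 0 with the keratinocyte and fibroblast scores; leaving out 1 sample gave 0 to 8. Without DIO 1 and DIO 6 the count stayed at 3 but held only Impa2 of the 3 genes, with Angptl4 and Aif1 at an adjusted p of 0.054 (limma). DIO against Lean, 1 gene, gave 3 with normexp background, 9 in the authors' table, 3 with slide as a block, 0 with the replicate block, 3 with trend and robust eBayes, 61 with array weights, 2 and 8 with the red cell and the keratinocyte and fibroblast scores, 27 without DIO 1 and DIO 6, and 1 to 37 with 1 sample left out (the count was 37 when DIO 6 was left out, 17 for Lean 7, 8 for DIO-R 6, 3 for DIO 3, and 2 for DIO-R 2 or DIO-R 3). DIO against DIO-R, 17 genes, gave 27 with quantile normalization, 26 in the authors' table, 4 with the replicate block, 38 with array weights, 3 with the red cell score, 10 without DIO 1 and DIO 6, and 11 to 24 with 1 left out (11 without DIO 1, 6 or 8 or DIO-R 5, 8 or 10). DIO-R against Lean, 36 genes, gave 9, 109, 152 and 58 with the replicate block, array weights, the keratinocyte and fibroblast scores, and without DIO 1 and DIO 6, and 26 to 64 with 1 left out (64 without Lean 3). The test of DIO apart from both groups gave 0 in each setting. The contrast changed sign for the chromosome 13 transcript (-0.04, mean of probes), Hbb-bs (-0.02), Hbb-b2 (-0.09) and Cd36 (-0.04) with the red cell score, Tas1r2 (0.01) and Gnat3 (0.12) without DIO 1 and DIO 6, and Dbp (0.02) with array weights. List medians changed sign for red cells (-0.01, red cell score) and taste bud renewal (0.06, without DIO 1 and DIO 6). A list's own score as a covariate removes its mean contrast by construction, and Hbb-bs and Hbb-b2 are members of the red cell list. Tas1r2 and Gnat3 are type II genes, and DIO 1 and DIO 6 were singled out for low scores in such genes. Of the values of named genes under these alternatives, 1376 kept sign and side of the threshold, 19 lost the call, 5 gained one and 7 changed sign; of list medians 442 moved by less than the spread between samples, 4 by more and 2 changed sign. Nrep passed with slide as a block (adjusted p = 0.0253, limma). With the replicate block the genes at an unadjusted p under 0.05 and those apart from both groups were 16 and 5 for cholesterol (from 24 and 14), 9 and 3 for MHC class II (from 9 and 6), 9 and 0 for keratinocytes (from 21 and 3) and 10 and 1 for macrophages (from 14 and 4). The cause of these changes was not tested. Whether equal replicate numbers mark paired samples was not settled. Over all genes, deviations of 18 same-numbered pairs correlated at -0.37 to 0.33, 4 of them over 0.1. Their median was -0.03, against -0.02 for other pairs. A correlation over all genes cannot show a pairing that touches few of them.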
